A study of Homo sapiens with 6 samples.

Results

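The genes described here are those of the last 3 machines of mitochondrial oxidative phosphorylation, complexes III, IV and V, with the electron carrier cytochrome c. They were picked out by symbol: every row of the deposited gene table whose name begins with UQCR, COX4 to COX8, ATP5, MT-CO, MT-CYB or MT-ATP, and the genes CYC1 and CYCS. That gave 56 of the 20345 genes in the table: 11 of complex III, 1 for cytochrome c, 21 of complex IV and 23 of complex V. The nucleus encodes 50 of them and mitochondrial DNA encodes 6. RNA was sequenced from the HEK 293FT line, which descends from human embryonic kidney and expresses SV40 large T antigen. One group, titled HEK 293FTGFP-CTRB1 and called CTRB1 cells here, comprised 3 libraries. The group it is set against, titled HEK 293FTGFP with the mark Vec and called GFP cells here, also comprised 3. Both names carry GFP, green fluorescent protein, and they differ by CTRB1, the gene of chymotrypsinogen B1, which is the inactive precursor of a pancreatic digestive protease. The labels name neither the promoter that drives the introduced genes nor whether a line is 1 clone or a pool, and they give no time point. Separate cultures are not mentioned for the libraries, and the p-values reflect the spread of these libraries alone, which may be technical.

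Complex III takes electrons from ubiquinol and hands them to cytochrome c, a small soluble protein of the intermembrane space. Complex IV, cytochrome c oxidase, passes them on to oxygen, and both complexes pump protons across the inner membrane. Complex V, the ATP synthase, lets the protons flow back through a ring of c subunits in its membrane part, Fo, and the turning ring drives ATP formation in its matrix part, F1. Most subunits are made from nuclear genes and imported, while cytochrome b, the catalytic core of complex IV and a pair of Fo subunits are made inside the organelle from transcripts of mitochondrial DNA, which is read as long precursors that are then cut into single messages. Released cytochrome c also starts the caspase cascade of apoptosis.

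The CTRB1 libraries held 31557364, 32522018 and 27514767 counts, against 52571457, 64859210 and 159616285 in the GFP libraries, so every CTRB1 library was shallower. In CPM (counts scaled to library size), a floor of 3 counts lay at 0.0923 to 0.109 in CTRB1 libraries and 0.0188 to 0.0573 in GFP libraries, counting error only. CTRB1 itself stood at 1588, 1474 and 1531 TPM (a level per transcript length, scaled to a fixed total) in CTRB1 libraries, against 0.0421, 0 and 0.0619 TPM in GFP libraries. The 5 of 6 HEK293 markers found in the table, mostly VIM, summed to 723 to 752 TPM in CTRB1 libraries and 756 to 830 TPM in GFP libraries. Markers of blood cells summed to 0.306 to 0.537 TPM in CTRB1 libraries and 0.726 to 0.868 TPM in GFP libraries, nearly all of it CD14 (0.454, 0.306 and 0.537 TPM in CTRB1 libraries, against 0.740, 0.726 and 0.862 TPM in GFP libraries), and those of fibroblasts to 0.108 to 0.385 and 0.290 to 0.400 TPM. Those of endothelium and keratinocytes stayed below 0.1 TPM in every library. Of the defining markers, CD3E and KRT14 were at 0 in all 6 libraries and PTPRC did not exceed 0.0225 TPM. The part of these cells in the results was not tested. RNA was taken from whole cultures, so fewer cells with a transcript and less of it per cell cannot be told apart.

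Of the 56 genes, 46 were expressed above the filter (FPKM, the deposited length-scaled level, at or above 1 in 3 or more of 6 libraries) and were tested: 40 nuclear and 6 mitochondrially encoded. At an adjusted p below 0.05 in edgeR's quasi-likelihood test, with Benjamini-Hochberg adjustment over all 11961 genes tested, 18 of the 46 differed between CTRB1 and GFP cells. That is 39.1%, beside 37.4% of all genes tested, so the share that differed lay near the background. The directions were unequal: 5 of the 46 rose in CTRB1 cells (10.9%, beside 18.6% of all genes) and 13 fell (28.3%, beside 18.9% of all genes). In 16 of the 46 every CTRB1 library lay below every GFP library, and in 5 every CTRB1 library lay above, beside 25.0% of all genes in each direction. The changes were small. The largest was that of CYCS, at -0.29 on the log2 scale, none reached 0.5, and the median absolute change of the called genes was 0.13, beside 0.20 for all called genes. The standard errors of these abundant transcripts were also small, with a median of 0.028 on the log2 scale beside 0.048 over all genes tested.

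Directions differed by genome of origin, a difference that was not itself tested. All 13 falls were of nuclear genes (32.5% of the 40 tested, beside 18.9% of all genes). Another 2 nuclear genes were higher. The median nuclear log2 change was -0.03, beside 0.00 over all genes. Among the 6 mitochondrially encoded genes 3 rose (50.0%, beside 18.6% of all genes) and none fell. All 6 estimates were above 0, with a median of 0.08. By complex, 2 of the 10 tested genes of complex III fell and none rose (median -0.01), 3 of 15 of complex IV rose and 1 fell (median -0.01), and 2 of 20 of complex V rose and 9 fell (median -0.07). Of the 18 called genes, 8 kept direction and call in all 15 alternative analyses, namely CYCS, UQCR11, ATP5MK, ATP5PF, ATP5MF, ATP5MJ, MT-CO3 and MT-ATP8. Limma on log2(FPKM + 1) called 2 of the 46 genes higher and 10 lower, and over all genes 1250 higher and 1942 lower, where the edgeR test had 2221 and 2258. With CTRB1 replicate 1 left out, 9 of the 46 were called higher.

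**Figure D1:**
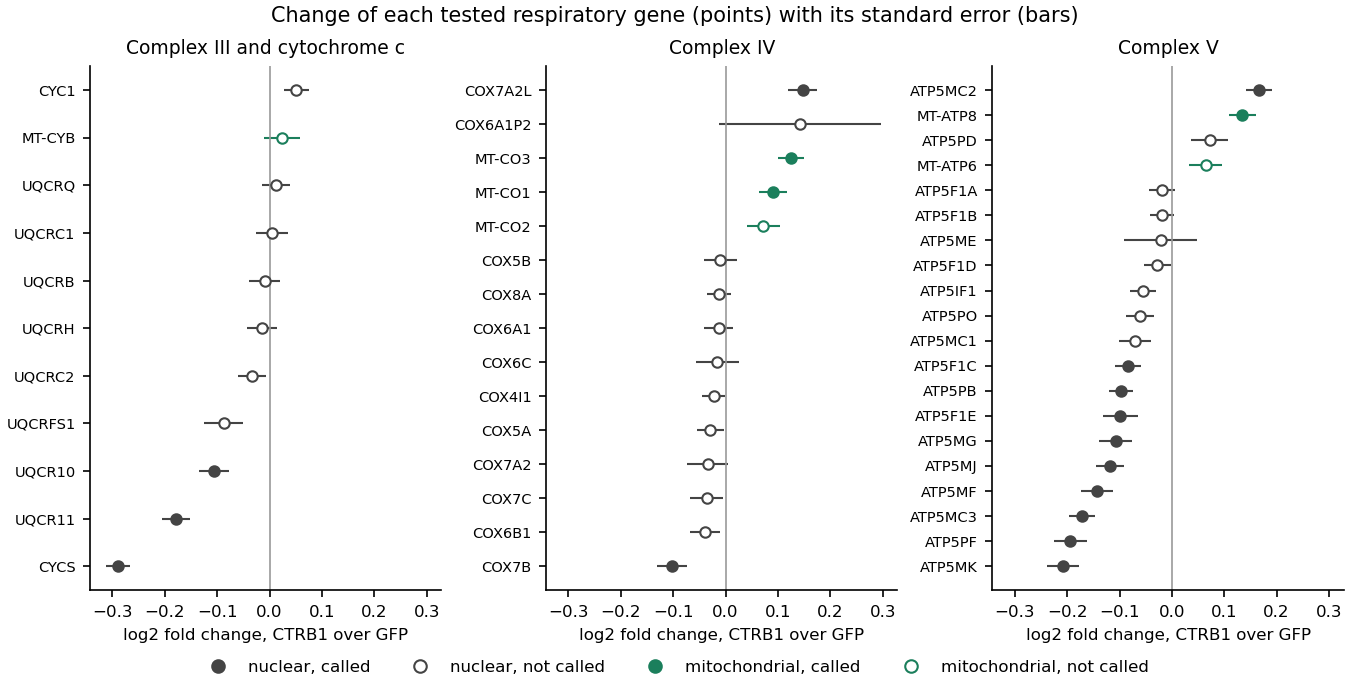
Log2 fold change of CTRB1 over GFP cells (x axis) for each of the 46 tested genes, in 3 panels by complex; points are edgeR estimates, bars 1 standard error, filled points passed the adjusted p threshold and green marks mitochondrially encoded genes. CYCS lies farthest to the left at -0.29, 9 filled points of complex V lie left of 0, and all 6 green points lie right of 0.

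Nuclear respiratory genes are known to share promoter motifs, among them the core site of NRF1 (nuclear respiratory factor 1) and the CCGGAAG core of ETS factors such as GABPA. The stretch from 250 bases before to 50 bases after the RefSeq start (GRCh38.p14) was searched on both strands in the 32 tested nuclear genes with a listed promoter that were read here, 38 promoters in all. GCATGCGC, the NRF1 core, was present in 7 of the 32 genes and in 21.1% of their promoters, beside 3.05% of 35116 promoters of the same length. CCGGAAG was present in 14 genes and 39.5% of their promoters, beside 10.26% of all promoters. AAGATGGC, a YY1 motif, was present in 4 genes (13.2% of their promoters, beside 2.89%), CCAAT in 16 (44.7%, beside 34.61%), CACGTG in 4 (10.5%, beside 7.26%) and TGANGCAA, a composite of C/EBP and ATF sites, in 1 (2.6%, beside 3.22%). Promoters of expressed genes alone were not used as a comparison. The NRF1 core lay in promoters of genes that fell (CYCS, ATP5PF, ATP5F1C), of 1 that rose (ATP5MC2) and of 3 that did not pass the test (ATP5ME, COX5B, COX6A1). A pair of matches in ATP5F1C overlap each other, being the 2 strands of 1 run. Promoters of 4 genes whose changes are described below are shown, each on the minus strand of its chromosome and 5′ to 3′ in the direction of transcription, with NRF1 cores and ETS cores, read on either strand, in capitals. CYCS, at chr7:25125211-25125510, had the largest fall of the 46 and has 1 NRF1 core, beginning 169 bases before the start. UQCR11, at chr19:1605413-1605712, had the largest fall in complex III and has 2 ETS cores, 117 and 97 bases before the start. ATP5PF, at chr21:25735005-25735304, has an NRF1 core 120 bases and an ETS core 30 bases before the start of the promoter shown, which is 1 of 2 listed; the other has 2 ETS cores and no NRF1 core. ATP5MC2, at chr12:53676034-53676333, rose and has 1 NRF1 core, 40 bases before the start of the promoter shown, which is 1 of 3 listed.
CYCS: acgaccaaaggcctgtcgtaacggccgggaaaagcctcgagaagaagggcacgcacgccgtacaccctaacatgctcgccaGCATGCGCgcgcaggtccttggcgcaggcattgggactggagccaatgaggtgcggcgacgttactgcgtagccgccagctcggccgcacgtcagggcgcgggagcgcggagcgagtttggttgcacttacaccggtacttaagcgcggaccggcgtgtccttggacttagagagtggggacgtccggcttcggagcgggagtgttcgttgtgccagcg
UQCR11: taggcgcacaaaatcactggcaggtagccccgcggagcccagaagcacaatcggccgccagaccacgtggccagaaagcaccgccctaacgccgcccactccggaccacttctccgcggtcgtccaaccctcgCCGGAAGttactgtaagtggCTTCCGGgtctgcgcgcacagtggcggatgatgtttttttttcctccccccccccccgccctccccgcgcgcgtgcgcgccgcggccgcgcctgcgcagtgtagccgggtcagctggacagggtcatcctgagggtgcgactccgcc
ATP5PF: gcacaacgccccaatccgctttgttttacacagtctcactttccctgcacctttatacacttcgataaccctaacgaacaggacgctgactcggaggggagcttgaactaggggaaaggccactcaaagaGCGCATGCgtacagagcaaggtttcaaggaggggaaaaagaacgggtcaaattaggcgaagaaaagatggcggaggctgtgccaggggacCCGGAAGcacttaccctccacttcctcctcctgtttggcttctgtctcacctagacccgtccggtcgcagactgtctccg
ATP5MC2: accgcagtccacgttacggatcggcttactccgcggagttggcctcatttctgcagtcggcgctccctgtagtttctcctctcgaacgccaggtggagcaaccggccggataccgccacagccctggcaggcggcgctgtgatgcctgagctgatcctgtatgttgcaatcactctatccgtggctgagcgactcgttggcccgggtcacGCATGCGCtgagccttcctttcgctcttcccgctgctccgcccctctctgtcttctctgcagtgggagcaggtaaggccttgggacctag

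Summed per length, the nuclear messages were lower in every CTRB1 library and the mitochondrially encoded messages were higher. The 50 nuclear genes added up to 12050, 12060 and 11960 TPM in CTRB1 libraries, against 12670, 12490 and 12470 TPM in GFP libraries, and the groups did not overlap. The mean sum in CTRB1 cells, 12020 ± 58.7 TPM (SD, n = 3), was 95.9% of that in GFP cells, 12540 ± 109 TPM (SD, n = 3). The 6 mitochondrially encoded genes added up to 77890, 82120 and 82270 TPM in CTRB1 libraries, against 76480, 75920 and 77660 TPM in GFP libraries. CTRB1 replicate 1 was the lowest of its group and exceeded the highest GFP library by little, while CTRB1 replicates 2 and 3 stood clear of all GFP libraries. The mean mitochondrially encoded sum was 80760 ± 2485 TPM in CTRB1 cells and 76690 ± 887 TPM in GFP cells (SD, n = 3 each), 105.3% of GFP. In CPM the groups overlapped in 1 library, with 34130, 36950 and 36790 in CTRB1 libraries, against 33660, 33650 and 34490 in GFP libraries. The ratio of the mitochondrially encoded to the nuclear sum was 6.46, 6.81 and 6.88 in CTRB1 libraries, against 6.04, 6.08 and 6.23 in GFP libraries, again without overlap and again lowest of its group in CTRB1 replicate 1. Among nuclear genes, the sum in CTRB1 cells was 96.8% of GFP for complex III, 97.5% for complex IV and 94.9% for complex V. For complex V the sums were 5898, 5849 and 5799 TPM in CTRB1 libraries, against 6219, 6127 and 6141 TPM in GFP libraries, a gap several times the SD of either group (49.5 and 49.3 TPM). No test was made of these sums.

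**Figure D2:**
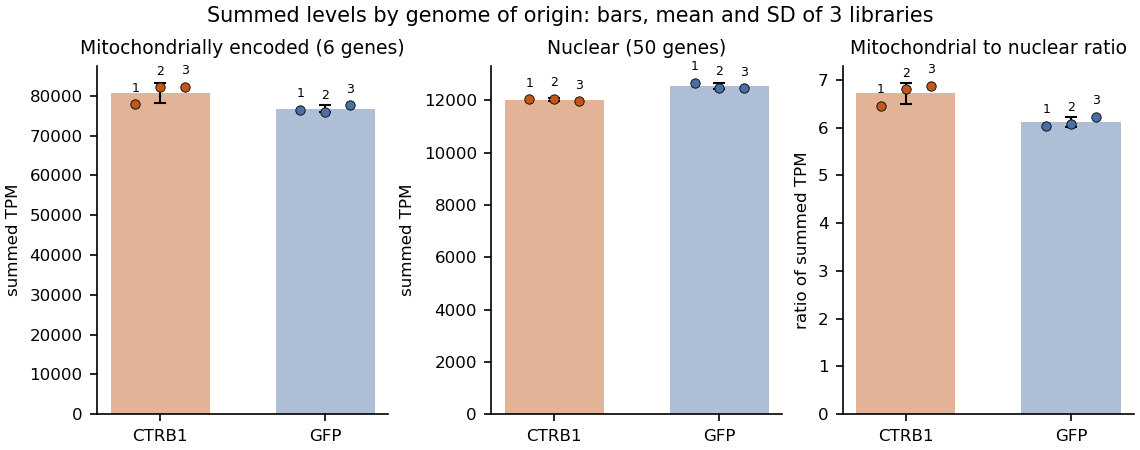
Summed TPM of the 6 mitochondrially encoded genes (left), of the 50 nuclear genes (middle) and their ratio (right), in CTRB1 and GFP cells; bars are means of 3 libraries, error bars the SD, numbered points the replicates, and y axes start at 0. The ratio is 6.46 to 6.88 in CTRB1 libraries, above 6.04 to 6.23 in GFP libraries.

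Cytochrome c transcripts fell, with the largest estimate of the 46 genes tested. CYCS (ENSG00000172115; chromosome 7, 25159710 to 25164980 in the table, which names no build) stood at 308.5, 305.9 and 313 CPM in CTRB1 libraries, against 384.6, 374 and 374.7 CPM in GFP libraries. All CTRB1 libraries lay below all GFP libraries. The log2 change was -0.29 ± 0.023 (SE), 18.2% lower in CTRB1 cells, with an edgeR adjusted p of 7.01e-06. Per length, CYCS averaged 142 ± 3.03 TPM in CTRB1 cells and 177 ± 2.13 TPM in GFP cells (SD, n = 3 each). Its NRF1 core is in the promoter shown above. HCCS, which attaches heme to cytochrome c, fell by a like amount: it stood at 41.2, 41.1 and 43 CPM in CTRB1 libraries, against 52.1, 51.9 and 49.7 CPM in GFP libraries, without overlap (log2 change -0.29 ± 0.041 SE, edgeR's adjusted p = 0.000328). The other 2 genes of cytochrome c maturation and import into the intermembrane space, CHCHD4 and GFER, which form its disulfide relay, were estimated at -0.02 and -0.06 on the log2 scale and did not pass (edgeR's adjusted p = 0.831 and 0.369).

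In complex III the fall was in a pair of small accessory subunits, and none of the 4 nuclear core subunits passed the test. UQCR11, one of the smallest subunits, stood at 90.2, 93.4 and 89.7 CPM in CTRB1 libraries, against 104.5, 102.2 and 102.7 CPM in GFP libraries. The groups did not overlap, and the log2 change was -0.18 ± 0.027 (SE; edgeR's adjusted p = 0.000514). UQCR10, another small subunit, stood at 78.1, 82 and 80.6 CPM in CTRB1 libraries, against 87.2, 86.7 and 85.2 CPM in GFP libraries, also without overlap. Its log2 change of -0.11 ± 0.029 (SE) had an edgeR adjusted p of 0.0145, which was 0.0529 leaving out GFP replicate 1 and 0.0553 leaving out GFP replicate 2, so that 1 of the 10 tested genes was then called. Of the other accessory subunits, UQCRH, the hinge protein that helps cytochrome c dock, stood at 234.8, 238.5 and 224.3 CPM in CTRB1 libraries, against 239.9, 230.7 and 234.3 CPM in GFP libraries. These overlapped, and the log2 changes of UQCRH, UQCRQ and UQCRB were between -0.01 and 0.01 (edgeR's adjusted p = 0.718, 0.739 and 0.828). Among the core subunits, CYC1, cytochrome c1, had a log2 change of 0.05 ± 0.024 (SE) and an edgeR adjusted p of 0.122, although every CTRB1 library (167.5 to 172.3 CPM) exceeded every GFP library (161.3 to 167.1 CPM). UQCRFS1, the Rieske iron-sulfur protein, had a log2 change of -0.09 ± 0.037 (SE; edgeR's adjusted p = 0.0849, and 0.0196 leaving out CTRB1 replicate 3). UQCRC1 and UQCRC2, the large matrix-side core proteins, were estimated at 0.01 and -0.03 on the log2 scale (edgeR's adjusted p = 0.909 and 0.345).

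In complex IV, 1 of the 12 nuclear genes tested rose and 1 fell (16.7% called, beside 37.4% of all genes). COX7A2L, also called SCAF1, which joins complex III and complex IV into supercomplexes, rose. It stood at 101.3, 102.1 and 101.4 CPM in CTRB1 libraries, against 93.4, 93 and 89.2 CPM in GFP libraries. The CTRB1 libraries lay within 1 CPM of each other and above all GFP libraries, a log2 change of 0.15 ± 0.028 (SE; edgeR's adjusted p = 0.00198, and 0.125 by limma on log2(FPKM + 1)). COX7B, a small subunit needed for assembly of the complex, fell, with 116.6, 124.8 and 120.7 CPM in CTRB1 libraries, against 128.1, 130 and 130.5 CPM in GFP libraries. The groups did not overlap, with CTRB1 replicate 1 the lowest. The log2 change of COX7B was -0.10 ± 0.028 (SE; edgeR's adjusted p = 0.0153, but 0.056 leaving out GFP replicate 2, 0.0631 leaving out GFP replicate 3 and 0.193 by limma on log2(FPKM + 1)).

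Several subunits of complex IV have tissue isoforms, and these cells carried the widespread form in each case. COX4I1, the common form of the regulatory subunit 4, stood at 297.2, 298.5 and 298 CPM in CTRB1 libraries, against 306.1, 298.9 and 303.2 CPM in GFP libraries, while COX4I2, the form of lung and of low oxygen, had 0 counts in all 6 libraries. Each CTRB1 value of COX4I1 lay below each GFP value, but the log2 change was -0.02 ± 0.022 (SE; edgeR's adjusted p = 0.438). COX6A1 stood at 179.3, 178.2 and 170.1 CPM in CTRB1 libraries, against 182, 176.3 and 174.7 CPM in GFP libraries, and its heart and muscle form COX6A2 had 0 counts in CTRB1 libraries and 0, 3 and 2 in GFP libraries. COX6B1 stood at 103.4, 108.4 and 102.9 CPM in CTRB1 libraries, against 108.4, 105.4 and 109.5 CPM in GFP libraries. Its testis form COX6B2 was the isoform with the most counts below the filter, at 40, 41 and 15 in CTRB1 libraries and 45, 58 and 168 in GFP libraries, or 1.26, 1.26 and 0.545 CPM against 0.859, 0.893 and 1.05 CPM. COX7A2 stood at 86, 95.1 and 91 CPM in CTRB1 libraries, against 93.9, 89.4 and 95.2 CPM in GFP libraries, and the muscle form COX7A1 had 2, 0 and 0 counts in CTRB1 libraries and 2, 0 and 5 in GFP libraries. COX8A stood at 128.9, 126.3 and 127.1 CPM in CTRB1 libraries, against 129, 129.6 and 127 CPM in GFP libraries, and its testis form COX8C had 0 counts in each CTRB1 library and 4, 3 and 12 in GFP libraries, which is 0.0462 to 0.0764 CPM and so below the floor of the CTRB1 libraries. COX7B2, the testis form of COX7B, had 0 counts in all 6 libraries. The common forms COX6A1, COX6B1, COX7A2 and COX8A overlapped between the groups, with log2 changes of -0.01, -0.04, -0.03 and -0.01. The remaining tested nuclear subunits, COX5A, COX5B, COX6C and COX7C, were also between -0.04 and -0.01 (edgeR's lowest adjusted p = 0.39, for COX7C).

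**Figure D3:**
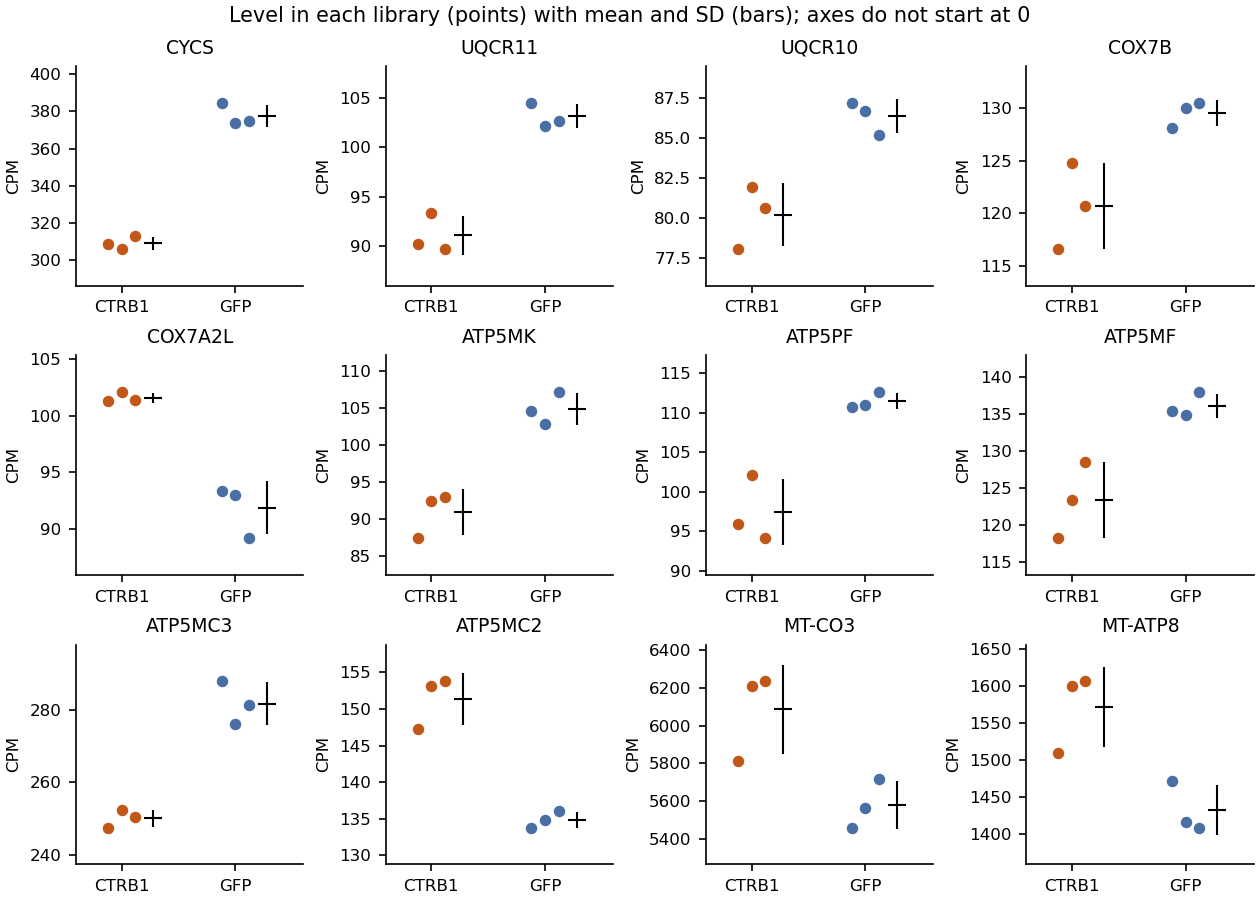
CPM of 12 genes in each CTRB1 library (left in each panel) and GFP library (right); points are libraries, crosses the mean with the SD, and the y axes do not start at 0. In all 12 panels the libraries of one group lie clear of those of the other: CYCS at 306 to 313 CPM in CTRB1 libraries and 374 to 385 CPM in GFP libraries, MT-CO3 at 5814 to 6236 and 5460 to 5717 CPM. MT-CO1, which was also called, is not shown. Its groups overlapped, at 12920 to 14130 CPM in CTRB1 libraries and 12680 to 13100 CPM in GFP libraries.

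In complex V, 9 of 18 tested nuclear genes fell (50.0%, beside 18.9% of all genes) and 1 rose, and the falls were in each part of the enzyme. In the membrane part, 4 of 5 small nuclear Fo subunits fell, with a median log2 change of -0.12 over the 5. ATP5MK, also called DAPIT, a small subunit that helps synthase dimers hold together, had the largest fall of complex V. It stood at 87.4, 92.4 and 93 CPM in CTRB1 libraries, against 104.6, 102.9 and 107.2 CPM in GFP libraries, well apart, and the log2 change was -0.21 ± 0.031 (SE; edgeR's adjusted p = 0.000505). ATP5MF, subunit f, stood at 118.2, 123.4 and 128.6 CPM in CTRB1 libraries, against 135.4, 134.9 and 138 CPM in GFP libraries. The CTRB1 libraries were the more scattered and still all lower, and the log2 change was -0.14 ± 0.031 (SE; edgeR's adjusted p = 0.00424). ATP5MJ, a small proteolipid, fell by 0.12 on the log2 scale (edgeR's adjusted p = 0.00632) and ATP5MG, subunit g, by 0.11 (edgeR's adjusted p = 0.0209, but 0.0655 leaving out GFP replicate 1 and 0.0643 leaving out GFP replicate 2). ATP5ME, subunit e, had a log2 change of -0.02 ± 0.069 (SE; edgeR's adjusted p = 0.83), and 61.6% of its exon bases lie opposite MYL5, so its counts may hold reads of that gene where strand was not used.

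In the peripheral stalk, which holds F1 still against the turning rotor, 2 of 4 nuclear subunits fell. ATP5PF, coupling factor 6, stood at 95.96, 102.1 and 94.1 CPM in CTRB1 libraries, against 110.7, 111 and 112.6 CPM in GFP libraries. The groups were well apart, with a log2 change of -0.19 ± 0.032 (SE; edgeR's adjusted p = 0.000808). Its exons overlap GABPA and JAM2 on the opposite strand over 23.1% of their bases, and GABPA rose in these data. ATP5PB, subunit b, fell by 0.10 on the log2 scale, to 306.8 ± 4.57 CPM in CTRB1 cells, against 328.2 ± 2.07 CPM in GFP cells (SD, n = 3 each; edgeR's adjusted p = 0.00629, and 0.663 by limma on log2(FPKM + 1)). ATP5PO, the oligomycin sensitivity-conferring protein at the top of the stalk, was lower in every CTRB1 library but did not pass the test (log2 change -0.06, edgeR's adjusted p = 0.0947). ATP5PD, subunit d, pointed the other way (log2 change 0.07, edgeR's adjusted p = 0.138, and 0.0182 leaving out CTRB1 replicate 1).

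In F1, the catalytic head, the genes of the large alpha and beta subunits did not pass the test and those of a pair of rotor subunits fell. ATP5F1B, the catalytic beta subunit, had the highest level per length of the nuclear genes, 980 ± 32.5 TPM in CTRB1 cells and 1007 ± 24.1 TPM in GFP cells (SD, n = 3 each), with a log2 change of -0.02 ± 0.023 (SE; edgeR's adjusted p = 0.532). ATP5F1A, the alpha subunit, had the same rounded log2 change (edgeR's adjusted p = 0.595), and ATP5F1D, the delta subunit, -0.03 (edgeR's adjusted p = 0.418). ATP5F1C, the gamma subunit and central shaft, fell by 0.08 on the log2 scale to 252.6 ± 0.649 CPM in CTRB1 cells, against 268 ± 6.4 CPM in GFP cells (SD, n = 3 each). Its adjusted p of 0.0212 in edgeR was 0.0936 leaving out GFP replicate 1 and 0.0814 leaving out GFP replicate 2. ATP5F1E, the epsilon subunit, fell by 0.10 on the log2 scale with an edgeR adjusted p of 0.0406, the weakest of the 18 calls. That p was 0.104 leaving out CTRB1 replicate 1, 0.0681 leaving out CTRB1 replicate 3, 0.14 leaving out GFP replicate 1, 0.145 leaving out GFP replicate 3 and 0.0529 with the replicate number as a block, and 23.2% of its exon bases lie opposite TUBB1. ATP5IF1, the inhibitor that stops the enzyme from running in reverse, had a log2 change of -0.06 ± 0.024 (SE; edgeR's adjusted p = 0.0975, and 0.033 leaving out CTRB1 replicate 1), with every CTRB1 library below every GFP library.

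The c ring is built from 1 mature protein that 3 genes, ATP5MC1, ATP5MC2 and ATP5MC3, all encode. One of the 3 rose, another fell and the last did not pass the test. ATP5MC2 stood at 147.3, 153.1 and 153.8 CPM in CTRB1 libraries, against 133.8, 134.8 and 136 CPM in GFP libraries. All CTRB1 libraries were higher, and the log2 change of 0.17 ± 0.025 (SE; edgeR's adjusted p = 0.000463) was the largest rise of the 46 genes. ATP5MC3 stood at 247.6, 252.3 and 250.5 CPM in CTRB1 libraries, against 287.8, 276 and 281.2 CPM in GFP libraries. All CTRB1 libraries were lower, with a log2 change of -0.17 ± 0.025 (SE; edgeR's adjusted p = 0.000391). ATP5MC1 stood at 76.4, 76 and 79.7 CPM in CTRB1 libraries, against 79.5, 82.8 and 81.3 CPM in GFP libraries, overlapping in 1 library, and did not pass the test (log2 change -0.07, edgeR's adjusted p = 0.0889, and 0.0474 leaving out CTRB1 replicate 3). As a share of the counts of the 3 genes, ATP5MC2 took 31.6 ± 0.30% in CTRB1 cells and 27.1 ± 0.35% in GFP cells, and ATP5MC3 took 52.2 ± 0.42% in CTRB1 cells and 56.6 ± 0.78% in GFP cells (SD, n = 3 each). ATP5MC1 took 16.2 ± 0.34% in CTRB1 cells and 16.3 ± 0.45% in GFP cells.

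The c-ring result depends on the unit. In deposited TPM, ATP5MC3 was at 218.5 ± 4.78 in CTRB1 cells and 204.1 ± 11.7 in GFP cells (SD, n = 3 each), the opposite direction to its counts, and limma on log2(FPKM + 1) gave a log2 change of 0.10 with an adjusted p of 0.108. FPKM is a count per length and depth, and the deposited values imply a length that differs between libraries. For ATP5MC3 the ratio of CPM to FPKM, which stands for that length on a relative scale, was 0.782, 0.747 and 0.766 in CTRB1 libraries, against 0.931, 0.983 and 0.896 in GFP libraries, a mean ratio of 0.817 between the groups. Whether the transcript forms in use differed was not tested, since the table gives genes and not transcripts. For ATP5MC2 the same ratio was 0.336, 0.354 and 0.441 in CTRB1 libraries, against 0.339, 0.359 and 0.357 in GFP libraries, so CTRB1 replicate 3 stood apart, and limma on log2(FPKM + 1) gave an adjusted p of 0.618. For most other tested genes of the 46 the ratio of CPM to FPKM differed little between the groups (0.999 for ATP5MF, 1.01 for CYCS). It differed more for ATP5F1D (0.947), ATP5PB (0.9475), COX7B (0.962) and COX7A2L (1.04). Of these, ATP5PB, COX7B and COX7A2L were called by edgeR but not by limma on log2(FPKM + 1). That also held for MT-CO1 and ATP5F1E (limma's adjusted p = 0.125 and 0.0609), whose ratios were both 0.997. The part of the implied length in these lost calls was not tested.

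**Figure D4:**
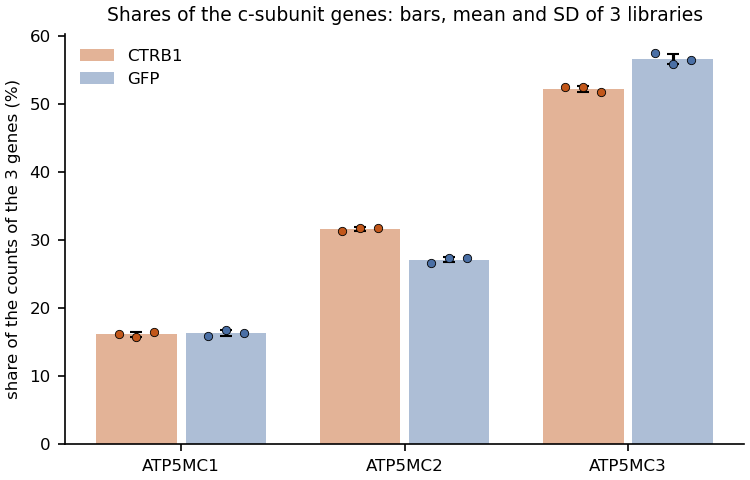
Share of the counts of the 3 c-subunit genes taken by each (y axis, percent, from 0) in CTRB1 cells (left bar of each pair) and GFP cells (right); bars are means of 3 libraries, error bars the SD and points the libraries. ATP5MC2 took 31.6% in CTRB1 cells and 27.1% in GFP cells, ATP5MC3 52.2% and 56.6%.

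The 6 mitochondrially encoded genes of complexes III to V all had estimates above 0, and MT-CO3, MT-ATP8 and MT-CO1 rose. MT-CO3, a core subunit of complex IV, stood at 5814, 6211 and 6236 CPM in CTRB1 libraries, against 5460, 5562 and 5717 CPM in GFP libraries. No libraries overlapped, although CTRB1 replicate 1 came close, and the log2 change was 0.13 ± 0.025 (SE; edgeR's adjusted p = 0.00262). MT-ATP8, the small Fo subunit A6L, stood at 1510, 1600 and 1607 CPM in CTRB1 libraries, against 1472, 1417 and 1409 CPM in GFP libraries. Again no libraries overlapped (log2 change 0.13 ± 0.026 SE, edgeR's adjusted p = 0.00223). MT-CO1, which holds the oxygen-reducing centre of complex IV, stood at 12920, 13990 and 14130 CPM in CTRB1 libraries, against 12680, 13100 and 12770 CPM in GFP libraries. CTRB1 replicate 1 lay among the GFP libraries, and the log2 change of 0.09 ± 0.027 (SE) had an edgeR adjusted p of 0.0229. That call was lost without CTRB1 replicate 2 (0.0877), CTRB1 replicate 3 (0.109), GFP replicate 1 (0.0742) or GFP replicate 3 (0.0554), with no expression filter (0.133) and by limma on log2(FPKM + 1) (0.125).

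The other 3 mitochondrially encoded genes overlapped between the groups. MT-CO2, which receives electrons from cytochrome c, stood at 4264, 4673 and 4448 CPM in CTRB1 libraries, against 4248, 4087 and 4399 CPM in GFP libraries (log2 change 0.07, edgeR's adjusted p = 0.0956). MT-ATP6, subunit a, which forms the proton path of complex V, stood at 5592, 5962 and 5978 CPM in CTRB1 libraries, against 5635, 5308 and 5818 CPM in GFP libraries (log2 change 0.06, edgeR's adjusted p = 0.13). MT-CYB, cytochrome b of complex III, stood at 4034, 4507 and 4387 CPM in CTRB1 libraries, against 4164, 4174 and 4374 CPM in GFP libraries (log2 change 0.02, edgeR's adjusted p = 0.605). In each of these the lowest CTRB1 library was replicate 1. The share of counts from mitochondrial DNA, of which these genes are a part, was low for its group in CTRB1 replicate 1. It was 5.33, 5.81 and 5.78% in CTRB1 libraries, against 5.30, 5.32 and 5.49% in GFP libraries. Without CTRB1 replicate 1 all 6 genes were called higher, with edgeR's adjusted p of 0.0286 for MT-CYB, 0.0188 for MT-CO2 and 0.028 for MT-ATP6, and leaving out another single library gave 2 to 4. Over all 13 mitochondrially encoded genes, complex I included, 5 rose (38.5%, beside 18.6% of all genes) and none fell, with a median log2 change of 0.07. Of the 7 complex I genes among them, 2 rose (28.6%) and 2 had estimates below 0, with a median log2 change of 0.05. Per length, their levels ran from 7073 ± 327 TPM for MT-CYB to 16620 ± 650 TPM for MT-CO1 in CTRB1 cells, and from 7033 ± 173 TPM to 15780 ± 343 TPM in GFP cells (SD, n = 3 each), above the 980 and 1007 TPM of ATP5F1B.

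MT-ATP8 and MT-ATP6 share 1 message, on which the end of MT-ATP8 (207 bases) overlaps the beginning of MT-ATP6 (681 bases) by 46 bases, read in different frames. The overlap is shown as in GENCODE v29 (GRCh38, plus strand, chrM:8527-8572), since both genes lie on 1 RNA while 1 of them was called and the other was not. Capitals mark the start codon of MT-ATP6 and the stop codon of MT-ATP8.
MT-ATP8 and MT-ATP6 overlap: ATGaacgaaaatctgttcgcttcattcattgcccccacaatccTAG
The sources used here do not say how reads that cover these bases were divided. The 2 genes had log2 changes of 0.13 ± 0.026 and 0.06 ± 0.032 (SE), and the difference between them was not tested. Nuclear copies of mitochondrial DNA also share sequence with the members: 27.9% of the 100-base windows of MT-CO1 occur unchanged in MTCO1P12 and 11.9% of those of MT-ATP6 in MTATP6P1.

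The 10 genes below the filter never exceeded 0.722 FPKM. Beside the 6 tissue isoforms of complex IV they were a second entry named UQCR11 (ENSG00000267059) with 9 counts over the CTRB1 libraries and 63 over the GFP libraries, the processed copies ATP5F1EP2 (7 and 17) and ATP5MGL (0 and 9), and ATP5MF-PTCD1, a readthrough transcript of ATP5MF and its neighbour (5 and 34). All exon bases of the second UQCR11 entry lie within exons of other genes. COX6A1P2, a copy of COX6A1 that passed the filter, stood at 2.24, 2.03 and 2.58 CPM in CTRB1 libraries, against 2.08, 2.19 and 1.95 CPM in GFP libraries, overlapping (log2 change 0.14 ± 0.16 SE, edgeR's adjusted p = 0.497). Of the 100-base windows of COX6A1, 33.8% occur unchanged in COX6A1P2 or in AL021546.1, a gene that overlaps it on the same strand. How reads were split between them is therefore uncertain, as it is for ATP5PO (67.1% of windows shared), COX8A (18.9%) and UQCRH (15.6%). Windows were also shared in the called genes ATP5F1E (30.5%), ATP5MG (14.7%), UQCR11 (11.1%) and ATP5PB (10.2%). For ATP5MK, also called, 15.4% of exon bases overlap another gene on the same strand.

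The nuclear genes that fell were on the whole longer and less GC-rich than those that did not pass the test. Median transcript length was 1324 bases for the 13 that fell and 856 bases for the 24 of 25 uncalled genes with a value, and median GC content was 43.6% and 51.2%. Over all genes tested the medians were 3078 bases and 49.4%. Across 39 nuclear genes, Spearman's rho between GC content and log2 change was 0.37, and between length and log2 change -0.22. Across 11730 genes of all kinds the same values were -0.03 and 0.07. These are descriptions across genes, which share libraries and are not independent replicates. The part of GC content and length in the calls was not tested.

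Around the subunits, the lists of genes that assemble the complexes and express mitochondrial DNA held both rises and falls. Of 6 assembly factors of complex III, 1 rose (16.7%, beside 18.6% of all genes) and none fell. This was TTC19, which clears fragments of the Rieske protein (log2 change 0.17, edgeR's adjusted p = 0.00297). Of 27 genes for complex IV assembly and copper or heme delivery, 2 rose and 8 fell (29.6%, beside 18.9% of all genes; median log2 change -0.04), and the 37.0% called in either direction was near the 37.4% of all genes. COX16, which helps insert copper into subunit 2, fell to 35.5 ± 1.72 CPM in CTRB1 cells, against 46.2 ± 1.31 CPM in GFP cells (SD, n = 3 each; log2 change -0.38, edgeR's adjusted p = 0.000184). HIGD1A, a hypoxia-inducible protein that binds the complex, fell by 0.20 on the log2 scale (edgeR's adjusted p = 0.000273) and COA4 by 0.22 (edgeR's adjusted p = 0.00193), while COX15, which makes heme A, rose by 0.12 (edgeR's adjusted p = 0.00638). Of 5 assembly factors of complex V, 1 fell (20.0%, beside 18.9% of all genes) and none rose. This was TMEM70, which helps build the c ring, with a log2 change of -0.19 (edgeR's adjusted p = 0.0199, but 0.0559 leaving out CTRB1 replicate 1, 0.0684 leaving out GFP replicate 2 and 0.0767 leaving out GFP replicate 3). In complex II, which feeds ubiquinol to complex III, 1 of 8 subunit and assembly genes rose and 3 fell (37.5%, beside 18.9% of all genes), namely SDHB, SDHC and SDHAF1. Leaving out CTRB1 replicate 3 or any 1 of the GFP libraries left 1 fall in each case. SDHAF4, an assembly factor of its flavoprotein, rose to 9.56 ± 1.31 CPM in CTRB1 cells, against 6.91 ± 0.701 CPM in GFP cells (SD, n = 3 each; log2 change 0.47, edgeR's adjusted p = 0.00959).

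Of 28 genes that copy, transcribe and process mitochondrial DNA and RNA, 2 rose and 10 fell (35.7%, beside 18.9% of all genes; median log2 change -0.08) and 42.9% were called, beside 37.4%, while the transcripts they serve had a median above 0. TWNK, the mitochondrial replicative helicase, fell by 0.36 on the log2 scale (edgeR's adjusted p = 2.91e-05, but 0.173 by limma on log2(FPKM + 1)). TRMT10C and ELAC2, which take part in cutting transfer RNAs out of the long precursors, fell by 0.31 and 0.22 (edgeR's adjusted p = 8.5e-05 and 0.000537). FASTK, an RNA-binding protein of mitochondrial granules, rose by 0.13 (edgeR's adjusted p = 0.014, and 0.0589 by limma on log2(FPKM + 1)). TFAM, which packages and transcribes mitochondrial DNA, and POLRMT, the mitochondrial RNA polymerase, were not called, with log2 changes of -0.07 and -0.08 (edgeR's adjusted p = 0.0578 and 0.125). TFB2M, of the same list, fell by 0.33 (edgeR's adjusted p = 0.00657). That call was kept in all 15 alternative analyses. Of 6 tested regulators of nuclear respiratory genes, 4 fell (66.7%, beside 18.9% of all genes) and 1 rose. The falls of YY1 and PPARGC1B were small (log2 changes -0.08 and -0.13, edgeR's adjusted p = 0.0301 and 0.0352), and both calls were lost leaving out CTRB1 replicate 2, GFP replicate 1 or GFP replicate 3, with 2 falls left each time; 2 were left by limma as well. PPRC1, a coactivator related to PGC-1alpha, fell to 117.2 ± 2.69 CPM in CTRB1 cells, against 141.1 ± 1.29 CPM in GFP cells (SD, n = 3 each; log2 change -0.27, edgeR's adjusted p = 2.3e-05). ESRRA, the estrogen-related receptor alpha, fell by 0.21 on the log2 scale (edgeR's adjusted p = 0.00249). GABPA, the ETS factor, rose by 0.12 (edgeR's adjusted p = 0.0339), a call that was lost without CTRB1 replicate 3 (0.1) and without GFP replicate 1, 2 or 3 (0.0968, 0.0733 and 0.0704), and the transcript overlaps ATP5PF. NRF1 had a log2 change of 0.07 (edgeR's adjusted p = 0.35) and PPARGC1A had at most 0.0923 CPM in any library.

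**Figure D5:**
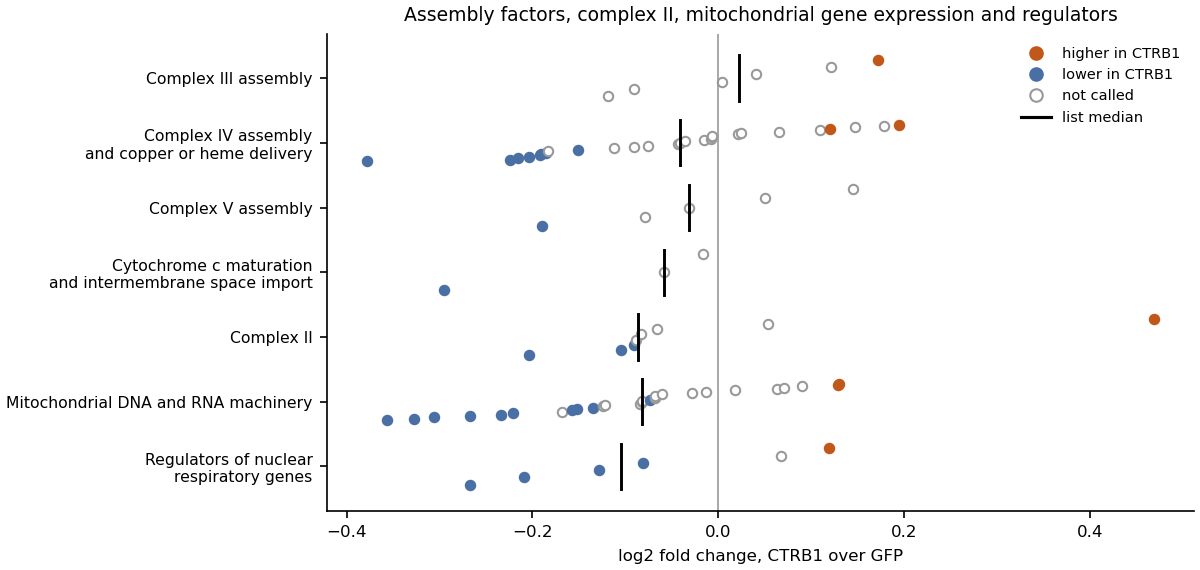
Log2 fold change of CTRB1 over GFP cells (x axis) for each tested gene of 7 lists (rows): orange points were called higher in CTRB1 cells, blue points lower, open points not called, and black bars are list medians. COX16, at -0.38, and TWNK, at -0.36, lie farthest left, and SDHAF4, at 0.47, farthest right.

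The authors' deposited table gives its own comparison. It lists an adjusted p for 47 of the 56 genes, and 17 of those are below 0.05, with 4 higher and 13 lower in CTRB1 cells. Of the 18 genes called here, 17 are below 0.05 in the authors' deposited table with the same direction, and the exception is MT-CO1.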

How the data were processed

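One deposited table with all 6 libraries was analysed. Per the file headers it holds read counts per gene, which the authors did not normalize (the values are whole numbers), and the authors' FPKM and TPM values. A comparison by the authors is also deposited, as log2 fold changes with adjusted p-values, and names no tool. Tools listed in the submitters' processing notes are HTSeq 0.6.1, HISAT2 2.2.1 and cutadapt 1.9.1, with no roles, and the build listed is the mouse GRCm38.p5, although all identifiers are human. The use of strand in counting is not given.

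Counts were tested with edgeR 4.0.16 in R 4.3.3 (TMM factors 0.996 to 1.004, FPKM of at least 1 in at least 3 of 6 libraries, quasi-likelihood F test, Benjamini-Hochberg adjustment over all 11961 genes kept, threshold 0.05, no covariates), after the same script was tested on simulated data. The SE is the absolute log2 change over the square root of the F statistic. CPM uses TMM-adjusted library sizes, and sums use deposited TPM. DESeq2 1.42.0 and limma 3.58.1 were alternatives. Transcript length, GC content, 100-base windows shared with other genes and exon overlaps come from GENCODE v29. Promoters come from RefSeq (GRCh38.p14), matched by symbol, and were read for 32 of 40 tested nuclear genes. Those not read include CYC1, UQCRB and COX6C, all on chromosome 8. The genes, gene lists and the rule for naming genes were chosen with earlier results of these data known. By that rule, values per library are given for up to 4 called genes per complex and direction, for CYCS, for all mitochondrially encoded genes and for isoform pairs, and at most 3 called genes per direction are named from a list. CHCHD4, GFER, TFAM, TFB2M, POLRMT, NRF1, PPARGC1A and PPARGC1B were added after their values were seen. Libraries of 1 group differed by more than counting noise (chi-square per degree of freedom 5.72 to 8.17, against 29.7 to 47.8 between groups). Same-numbered libraries did not deviate together (correlations -0.08, -0.08 and -0.13), so numbers were not treated as pairs.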

Additional observations from a re-analysis of the deposited data

How the results depend on the processing

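Of the 46 tested genes 18 were called, and 8 of these kept direction and call in all 15 alternatives. ATP5MC3 reversed with limma on FPKM, to a log2 change of 0.1014 with a pseudocount of 1 and 0.1024 with 0.1 (adjusted p = 0.108 and 0.109). Limma on FPKM, with either pseudocount, called 1250 genes higher in all, 2 of the 46 and 0 of the nuclear genes. The edgeR test called 2221, 5 and 2 higher. In either direction, limma called 1 gene of complex IV and edgeR called 4. The cause of these differences was not tested. Leaving out 1 library at a time gave 4 to 9 of the 46 called higher, 2 to 6 mitochondrially encoded genes called higher and 1 to 3 genes of complex III called, with fewer samples in each fit. In the same fits 9 to 14 nuclear genes were called lower, and 8 to 13 genes of complex V were called in either direction. The summed level of nuclear complex III genes was 98.22% of GFP in CPM (96.77% in TPM). That of complex V was 96.13% (94.91% with all genes) without those that overlap or copy another gene; 22 of the 56 were left out there. With the replicate number as a block, complex V had 10 calls instead of 11 (ATP5F1E was lost) and no other call among the 46 changed; correlations of same-numbered libraries were below 0, no library correlated best with its own number, and those of other pairs ran from -0.09 to 0.20. DESeq2, its size factors, and library sizes without mitochondrially encoded genes left the counts of calls by complex as they were. The shallowest library, with 27514767 counts, limits precision; thinning all libraries to it gave 14 of the 46 lower and 5 higher.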
